A study of Mus musculus with 8 samples.

Results

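Glutathione and antioxidant enzymes were examined in mouse prostate with and without *Olfm4*, from animals aged 3 months. The members were taken by name: every probe set of the array that carries a single gene symbol and belongs to the glutathione S-transferases (symbols beginning with Gst and a class letter), the microsomal transferases *Mgst1* to *Mgst3*, the glutathione peroxidases (Gpx), the peroxiredoxins (Prdx), or the genes *Gclc*, *Gclm*, *Gss*, *Gsr*, *Nqo1*, *Txnrd1*, *Sod1*, *Sod2*, *Sod3*, *Cat* and *Hmox1*. This gave 74 probe sets for 45 genes, of 45037 probe sets and 18193 genes in all. The rule uses gene names alone. A probe set is a group of short oligonucleotides that read 1 transcript region, and 26 of the 45 genes had 1 probe set and 19 had several. For genes with several, the brightest one, by its mean over the 8 arrays, stands for the gene. A further 6 probe sets that name several genes were left out, of which 5 name *Prdx1* and 1 names *Gsta1* together with *Gsta2*, so *Prdx1* and *Gsta1* were not analysed here.

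The arrays were Affymetrix Mouse Genome 430 2.0 arrays of whole prostate RNA, 4 from mice homozygous for the *Olfm4* knockout and 4 from wild-type mice, each array from 1 animal. All mice had a mixed background, 50% 129/SV and 50% NIH Black Swiss, and all cells of a knockout animal lack the gene. The array labels carry 2 days, and each day held 2 arrays of each genotype. The study was designed to look for expression changes behind the greater tumorigenesis of the *Olfm4*-deficient prostate. Values are log2 expression values, so a difference of 1 is a 2-fold change, and every difference below is knockout minus wild type from a limma fit with array day as a term. A probe set was called when its p-value, adjusted by the Benjamini-Hochberg method over all 45037 probe sets, was under 0.05.

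Glutathione is a small tripeptide thiol that cells keep at high concentration. Glutamate-cysteine ligase (*Gclc*, *Gclm*) and glutathione synthetase (*Gss*) make it, glutathione S-transferases join it to electrophiles, glutathione peroxidases use it to reduce peroxides, and glutathione reductase (*Gsr*) returns the oxidised form to use. Superoxide dismutases and catalase act before these on superoxide and hydrogen peroxide, and many of the genes are targets of the transcription factor NRF2 (*Nfe2l2*), which binds antioxidant response elements. Loss of the pi-class transferase GSTP1 by promoter methylation is well known in human prostate cancer.

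The core of the antioxidant response element, TGACNNNGC, was looked for on both strands in the RefSeq promoters of the members (GRCm38.p6, 250 bases before to 50 bases after each gene start). Of 39 member genes with a promoter sequence, 7 held the core (17.9%), against 14% of the 27025 genes with a promoter. These shares are close, and nothing particular to the members is read from them. The 7 stretches are shown because NRF2 is known to bind elements of this kind, each with 10 bases on either side, read 5′ to 3′ on the strand that holds the motif, and with the core in capitals.
Gclm: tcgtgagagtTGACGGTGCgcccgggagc
Gsta3: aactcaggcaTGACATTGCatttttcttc
Gstm5: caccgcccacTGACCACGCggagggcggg
Gstm7: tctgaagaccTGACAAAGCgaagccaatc
Mgst1: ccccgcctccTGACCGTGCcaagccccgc
Sod1: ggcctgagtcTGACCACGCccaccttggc
Txnrd1: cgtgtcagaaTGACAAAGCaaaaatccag

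The stretches lie at chr3:122245413-122245441 on the minus strand for *Gclm*, chr1:21240454-21240482 on the plus strand for *Gsta3*, chr3:107895802-107895830 on the plus strand for *Gstm5* and chr3:107931725-107931753 on the minus strand for *Gstm7*. Those of *Mgst1*, *Sod1* and *Txnrd1* lie at chr6:138140461-138140489, chr16:90220696-90220724 and chr10:82859104-82859132, each on the minus strand. Relative to the gene start the cores began at positions from -134 (*Gclm*) to -42 (*Gstm5*). *Txnrd1* has several promoters in the table and 1 of them holds the core. A match to these letters is a description and not a bound site.

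*Olfm4* itself lay between 3.00 and 3.25 on the knockout arrays and between 10.23 and 10.74 on the wild-type arrays, a difference of -7.37 (adjusted p = 1.79e-06), so the genotype labels hold. The luminal epithelium markers, a list of secretory-cell keratins and prostate genes, had means of 13.47 to 13.59 on all 8 arrays, as the tissue label states. The array medians ranged from 6.03 to 6.09. Knockout array 1 and wild-type array 1 stood apart: the mean of 5 seminal vesicle secretory genes was 13.75 and 14.15 on them and 7.59 to 9.81 on the other 6 arrays, and the mean of 4 adipose markers was 9.45 and 10.40 on them and 6.27 to 7.84 elsewhere. Knockout array 3 stood apart in skeletal muscle markers (6 genes), with a mean of 9.10 against 7.01 to 7.76 on the remaining arrays. Basal epithelium markers (5 genes) had means of 11.56 to 11.93 in the knockout and 11.33 to 11.64 in the wild type, all 5 with a positive difference, fibroblast markers were 10.14 to 10.62 against 10.03 to 10.30, and leukocyte markers were 8.36 to 8.84 against 8.56 to 9.12. The part of these cell types in the results was not tested, and values without both arrays 1 are given for many, but not all, of the genes described below. In whole tissue, fewer cells of a type and less RNA per cell cannot be told apart.

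Most antioxidant enzyme genes differed little between genotypes, and their differences ran in both directions. Of the 45 genes, 22 were higher and 23 were lower in the knockout, with a median difference of -0.02 against -0.01 for all 18193 genes. In 31 genes (68.9%) the difference was less than 0.2 on the log2 scale. The same share over all genes is not given here, so this count describes the members alone. The differences ran from -0.84 for *Gsta3* to 0.46 for *Gpx8*. None of the 74 probe sets was called, where 0.111% of all probe sets were (50 of 45037), and the lowest adjusted p of a member was 0.202, for the second probe set of *Gsta3*.

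At an unadjusted p under 0.05, 13 of the 74 probe sets (17.6%) passed, against 12.8% of all probe sets. By gene, 1 was higher (*Txnrd1*, 2.22% of the members, against 6.27% of all genes) and 5 were lower (*Gsta3*, *Gstt1*, *Gstp3*, *Mgst2* and *Sod2*, 11.1% of the members, against 8.49% of all genes). The 4 knockout and 4 wild-type values did not overlap for 5 genes (11.1%, against 10.8% of all genes), namely *Txnrd1* with the knockout higher and *Gsta3*, *Gstt1*, *Gstp3* and *Sod2* with the knockout lower. Read against the shares of all genes, these counts are no result about the group. Values that do not overlap always give the exact two-sided permutation test over the 8 arrays its smallest possible p, 0.0286. For these genes that p is therefore no further support, and the test did not keep the array days apart.

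**Figure D1:**
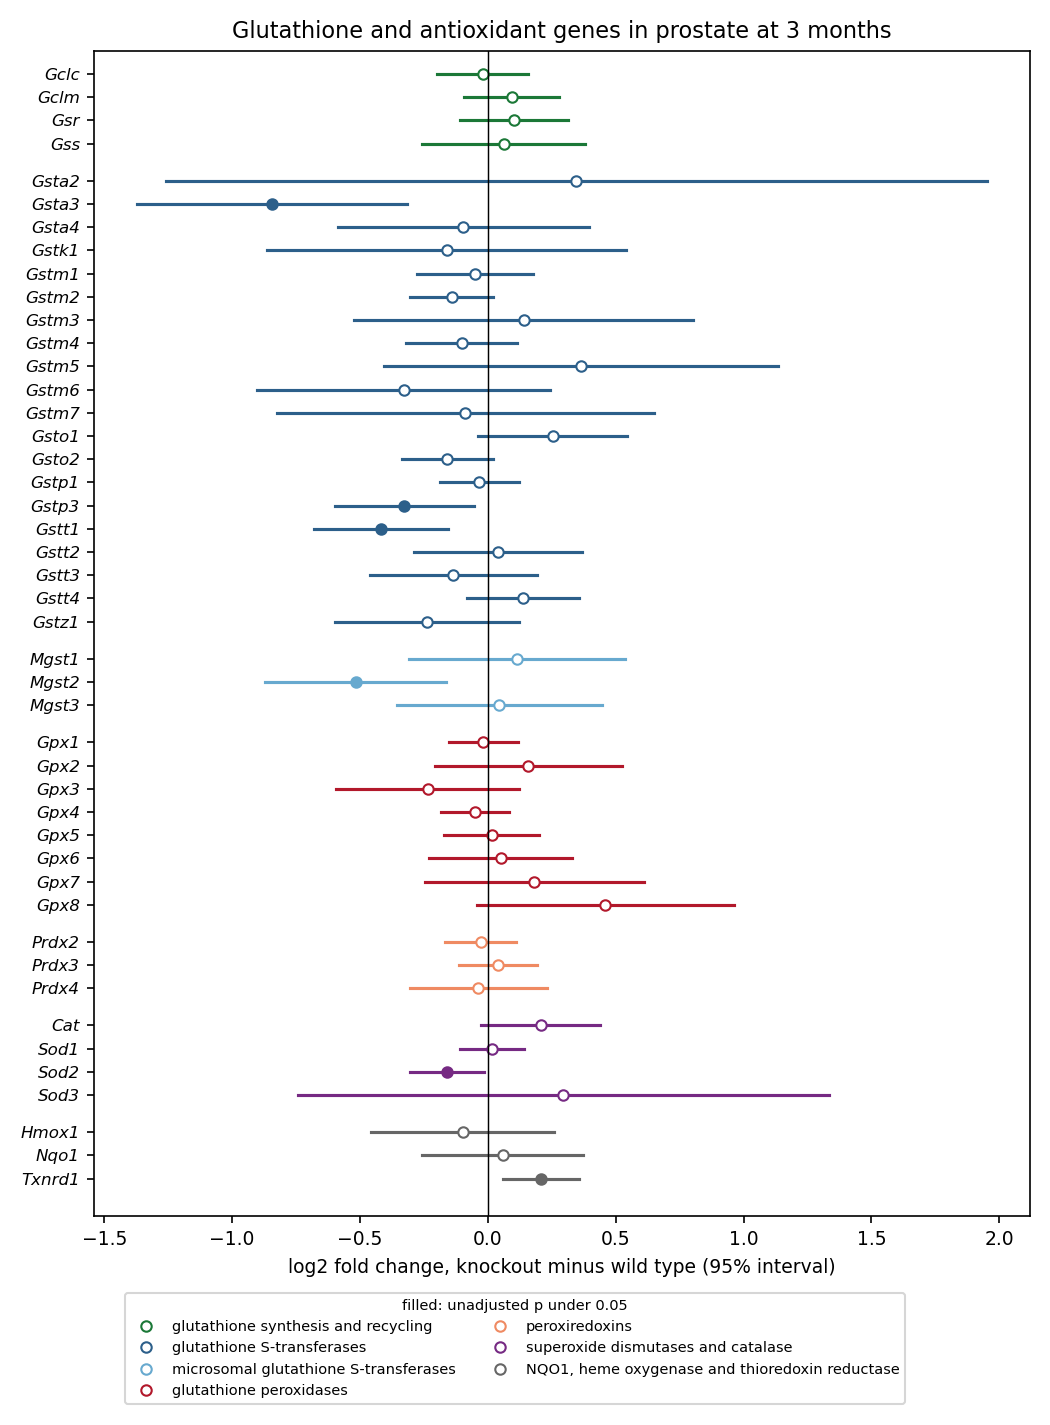
The horizontal axis gives the knockout minus wild-type log2 difference of each of the 45 genes with its 95% interval (limma, 4 arrays against 4), and colours give the enzyme group. Most genes lie near 0, and the 6 filled points (*Gsta3*, *Gstp3*, *Gstt1*, *Mgst2*, *Sod2* and *Txnrd1*) are those at an unadjusted p under 0.05, none of which passed the adjusted threshold.

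The 4 genes of glutathione synthesis and recycling showed differences of -0.02 to 0.10, with a median of 0.08 and none at an unadjusted p under 0.05. *Gclm*, the modifier subunit of glutamate-cysteine ligase, had 10.51, 10.23, 10.24 and 10.25 on knockout arrays 1 to 4 and 10.25, 10.19, 10.26 and 10.15 on wild-type arrays 1 to 4. Only knockout array 1 lay above the wild-type range, and the difference was 0.09 (adjusted p = 0.674), or 0.03 without that array. A second, dimmer *Gclm* probe set had the other sign, at -0.15 (adjusted p = 0.615). On it the difference was -0.26 without knockout array 1 and -0.24 without both arrays rich in seminal vesicle transcripts (adjusted p = 0.339 for the latter). *Gsr*, which reduces oxidised glutathione with NADPH, had 11.81, 12.10, 12.11 and 12.00 in the knockout and 11.94, 11.84, 12.01 and 11.81 in the wild type, an overlap of the genotypes (0.10, 95% interval -0.11 to 0.31, adjusted p = 0.686). Without both arrays rich in seminal vesicle transcripts *Gsr* gave 0.21. *Gclc*, the catalytic subunit that carries out the first and rate-limiting step, differed by -0.02 (95% interval -0.20 to 0.16), and its second, dimmer probe set by -0.22 (adjusted p = 0.414). *Gss* differed by 0.06, and by 0.03 on its other probe set.

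The cytosolic and mitochondrial glutathione S-transferases formed the largest group, with 20 genes on 27 probe sets. Of these, 6 were positive and 14 negative, with a median of -0.10 against -0.01 for all genes. At an unadjusted p under 0.05, 3 were lower, where 8.49% of all genes were. Whether the group leaned to lower values was not tested. The alpha class includes *Gsta3*, a transferase known in rodents for conjugating aflatoxin epoxide, and it had the largest difference among the members. Its values were 9.93, 9.27, 10.20 and 10.02 on the knockout arrays and 11.16, 10.72, 10.63 and 10.29 on the wild-type arrays. All 4 knockout values lay below all 4 wild-type values, although knockout array 3 and wild-type array 4 were less than 0.1 apart. The mean was 9.85 ± 0.404 in the knockout and 10.70 ± 0.360 in the wild type (SD, n = 4), a difference of -0.84 ± 0.226 (SE), which is 1.79-fold lower (adjusted p = 0.254).

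A second, dimmer *Gsta3* probe set separated the genotypes in the same direction, with 6.79, 6.52, 7.23 and 7.25 in the knockout and 7.73, 7.58, 7.49 and 7.45 in the wild type. Again the genotypes did not overlap, and the difference was -0.61 ± 0.132 (SE, adjusted p = 0.202). Within array day 1 the brighter probe set of *Gsta3* differed by -0.62 and within day 2 by -1.07, and leaving out any single array gave -1.06 to -0.67. Without both arrays rich in seminal vesicle transcripts it was -0.79 (adjusted p = 0.316). The *Gsta3* promoter is 1 of the 7 that hold the response element core shown above.

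*Gsta2* behaved differently from its neighbour in class on a single array. It measured 10.56 on knockout array 1, and 7.31, 6.89 and 7.41 on knockout arrays 2 to 4, against 7.48, 7.73, 7.69 and 7.88 in the wild type. Knockout array 1 was thus the highest of all arrays by more than 2 log2 units, while the other 3 knockout arrays were the lowest. With all arrays the difference was 0.35 ± 0.688 (SE, adjusted p = 0.874), and without knockout array 1 it turned to -0.48 (adjusted p = 0.287). Without both arrays rich in seminal vesicle transcripts it was -0.57 (adjusted p = 0.277). Wild-type array 1, whose seminal vesicle mean was the higher of the pair, had the lowest *Gsta2* value of the wild-type arrays. *Gsta4*, which conjugates the lipid peroxidation product 4-hydroxynonenal, differed by -0.10 (95% interval -0.59 to 0.39), or 0.03 without both arrays rich in seminal vesicle transcripts.

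The theta class has 4 members that lie next to each other in the RefSeq gene order, and 1 of them stood out. *Gstt1* had 9.68, 9.61, 10.05 and 10.07 in the knockout and 10.39, 10.19, 10.37 and 10.13 in the wild type. Every knockout array was below every wild-type array, with knockout arrays 3 and 4 close to wild-type array 4. The difference was -0.42 ± 0.113 (SE, 1.34-fold lower, adjusted p = 0.254), -0.20 within array day 1 and -0.64 within day 2, and without both arrays rich in seminal vesicle transcripts it was -0.37 (adjusted p = 0.377). Its neighbours *Gstt2*, *Gstt3* and *Gstt4* differed by 0.04, -0.13 and 0.14, with adjusted p-values of 0.934, 0.734 and 0.592. Without both arrays rich in seminal vesicle transcripts *Gstt3* gave 0.05, and *Gstt4* was dim, with a mean of 4.76 in the knockout and 4.62 in the wild type. Whether *Gstt1* differed from them in its response was not tested.

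In the pi class, *Gstp1*, the main pi-class transferase, showed a difference within the spread of the arrays. Its values were 13.40, 13.23, 13.46 and 13.40 in the knockout and 13.45, 13.35, 13.43 and 13.41 in the wild type, and the difference was -0.03 (95% interval -0.19 to 0.12, adjusted p = 0.875). *Gstp3*, a related gene with low signal, had 4.91, 4.98, 4.79 and 4.96 in the knockout and 5.55, 5.22, 5.09 and 5.10 in the wild type. The genotypes did not overlap, and the difference was -0.33 ± 0.116 (SE, adjusted p = 0.322). Wild-type array 1 was the highest, and without both arrays rich in seminal vesicle transcripts the difference was -0.20 (adjusted p = 0.429). The values of *Gstp1* and *Gstp3* that are printed here and not required by the rule for named genes were chosen after they had been seen, as were those of *Gsta2*, *Gstm5*, *Gstm7*, *Sod3* and *Gstk1*.

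The mu class had 7 genes in a single cluster, in the order *Gstm5*, *Gstm7*, *Gstm6*, *Gstm3*, *Gstm2*, *Gstm1* and *Gstm4*, and its differences were small or rested on knockout array 1. *Gstm5* measured 12.84 on that array and 11.27, 11.54 and 11.62 on the other knockout arrays, against 11.79, 11.42, 11.44 and 11.16 in the wild type. The difference was 0.36 (adjusted p = 0.691), without knockout array 1 it was -0.0032, and without both arrays 1 it was 0.13. *Gstm7* had 9.38 on knockout array 1 and 7.76, 8.29 and 8.20 on the others, against 8.67, 8.45, 8.50 and 8.36 in the wild type. Knockout arrays 2 to 4 lay below all wild-type arrays, so that the difference of -0.09 (adjusted p = 0.937) became -0.45 without knockout array 1 (adjusted p = 0.256). *Gstm5* and *Gstm7* both hold the response element core in their promoters.

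Among the other mu-class genes, *Gstm2* differed by -0.14 (adjusted p = 0.456) and *Gstm4* by -0.10 (adjusted p = 0.69). *Gstm3* (0.14) and *Gstm6* (-0.33) had means under 5 on the log2 scale and neither passed an unadjusted p of 0.05. Without both arrays rich in seminal vesicle transcripts they gave 0.02 and 0.12. *Gstm1*, the classic mu-class transferase, differed by -0.05 on its brightest probe set, whose probes can also match related genes. Its values there were 13.32, 12.98, 13.02 and 12.99 in the knockout and 13.25, 13.12, 13.09 and 13.05 in the wild type, so knockout array 1 was the highest array and the other 3 knockout arrays the lowest. A second, similarly bright *Gstm1* probe set gave 13.34, 12.89, 13.01 and 12.88 against 13.25, 13.04, 13.03 and 13.06 (difference -0.07).

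The dimmer *Gstm1* probe sets pointed the other way. One of them, which can also match related genes, had 10.70, 10.36, 9.97 and 10.04 in the knockout and 9.97, 9.85, 9.79 and 9.999 in the wild type, a difference of 0.36 (adjusted p = 0.376). Knockout arrays 1 and 2 made most of it, since arrays 3 and 4 lay in or beside the wild-type range, and the difference was 0.02 within array day 1 and 0.71 within day 2. The dimmest had 6.51, 6.05, 5.96 and 5.95 against 5.79, 6.19, 5.82 and 5.92, with overlapping genotypes (0.19, adjusted p = 0.58). The mu-class genes are close in sequence, so signal from neighbours cannot be separated on the probe sets of shared sequence.

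The remaining classes had no member gene at an unadjusted p under 0.05. *Gsto1*, an omega-class enzyme that reduces dehydroascorbate, again had probe sets of opposite sign. The brighter, which can match other sequences, gave 11.59, 11.86, 11.27 and 11.48 in the knockout and 11.35, 11.29, 11.15 and 11.38 in the wild type, with an overlap (0.25, adjusted p = 0.455). The other gave 11.23, 11.13, 11.18 and 11.19 against 11.32, 11.35, 11.41 and 11.29, with every knockout value below every wild-type value (-0.16 ± 0.0608, SE, adjusted p = 0.348). *Gsto2* differed by -0.16 (adjusted p = 0.446) and *Gstz1*, maleylacetoacetate isomerase of tyrosine breakdown, by -0.24 (adjusted p = 0.571), or 0.01 without both arrays rich in seminal vesicle transcripts. *Gstk1*, the kappa-class transferase of mitochondria and peroxisomes, measured 11.65 on knockout array 1 and 12.21 to 13.08 on the other 7 arrays, with a difference of -0.16 that became 0.14 without knockout array 1 and 0.34 without both arrays 1.

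The microsomal transferases are membrane proteins of a separate family, and *Mgst2*, which can make leukotriene C4, was the member with the lower value in the knockout. It had 7.61, 7.21, 7.78 and 7.42 in the knockout and 8.04, 7.70, 8.26 and 8.08 in the wild type. The genotypes overlapped only through knockout array 3 and wild-type array 2. The difference was -0.52 ± 0.152 (SE, 1.43-fold lower, adjusted p = 0.275), with -0.46 within array day 1, -0.57 within day 2, and -0.62 without both arrays rich in seminal vesicle transcripts (adjusted p = 0.286).

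*Mgst1*, an abundant microsomal transferase, had 11.34, 11.79, 11.88 and 11.93 in the knockout and 12.00, 11.54, 11.69 and 11.26 in the wild type. The arrays rich in seminal vesicle transcripts were the lowest of the knockout and the highest of the wild type. The difference was 0.11 (adjusted p = 0.835) over all arrays and 0.41 without those arrays (adjusted p = 0.292). *Mgst3* differed by 0.04 (95% interval -0.36 to 0.45), or 0.20 without those arrays.

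**Figure D2:**
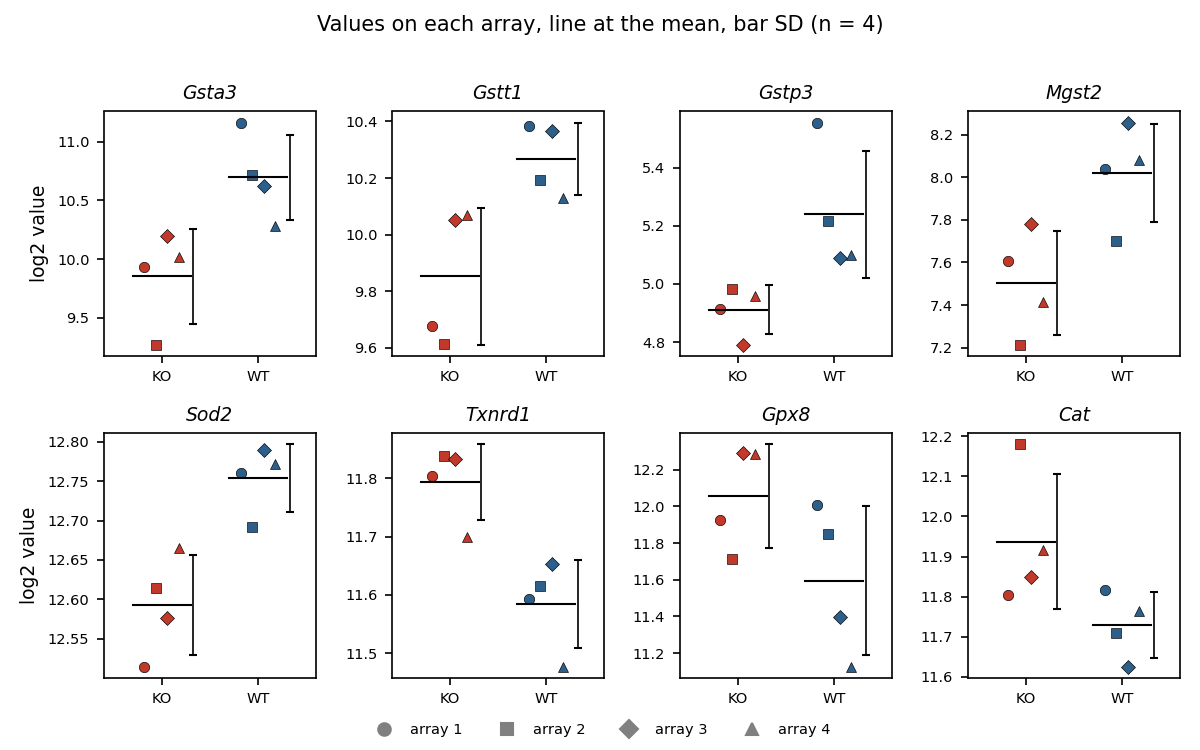
Each panel plots the log2 value of a gene on the 4 knockout (KO) and 4 wild-type (WT) arrays, with marker shape for the array number, a line at the mean and a bar for the SD, and each panel has its own vertical scale. The knockout values of *Gsta3*, *Gstt1*, *Gstp3* and *Sod2* lie below and those of *Txnrd1* above all wild-type values, while *Mgst2*, *Gpx8* and *Cat* overlap.

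None of the 8 glutathione peroxidases reached an unadjusted p under 0.05, and their median difference was 0.03. *Gpx8*, a peroxidase of the endoplasmic reticulum, had the largest positive difference of all members. Its values were 11.93, 11.71, 12.29 and 12.28 in the knockout and 12.01, 11.85, 11.40 and 11.13 in the wild type. Knockout arrays 3 and 4 were above, and wild-type arrays 3 and 4 below, a shared middle range (0.46 ± 0.216, SE, 95% interval -0.04 to 0.96, adjusted p = 0.434). The difference was 0.72 within array day 1 and 0.20 within day 2, 0.23 without wild-type array 4, and 0.63 without both arrays rich in seminal vesicle transcripts. *Gpx3*, the secreted plasma form, had 13.05, 13.32, 13.77 and 13.21 in the knockout and 13.69, 13.58, 13.63 and 13.39 in the wild type. Knockout array 3 was the highest array and the other 3 knockout arrays were the lowest (-0.24, adjusted p = 0.571), and without knockout array 3 the difference was -0.38 (adjusted p = 0.299). It was -0.14 without knockout array 1, -0.09 without both arrays 1, -0.05 within array day 1 and -0.42 within day 2.

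The general intracellular peroxidases had narrow intervals around 0. *Gpx1*, the cytosolic and mitochondrial form, differed by -0.02 (95% interval -0.15 to 0.12). *Gpx4*, which reduces lipid hydroperoxides and guards against ferroptosis, differed by -0.05 (95% interval -0.18 to 0.08). A second, dimmer *Gpx4* probe set differed by -0.11 (95% interval -0.26 to 0.04, adjusted p = 0.539). *Gpx2*, the gastrointestinal form, differed by 0.16, or 0.02 without both arrays rich in seminal vesicle transcripts. *Gpx7*, another endoplasmic reticulum form, differed by 0.18. The *Gpx7* difference was 0.0083 without knockout array 1 and 0.12 without both arrays rich in seminal vesicle transcripts. *Gpx5*, known as an epididymal secretory protein, lay between 3.65 and 3.98 on all 8 arrays, and *Gpx6*, the olfactory form, between 4.06 and 4.54, with differences of 0.02 and 0.05.

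The 3 peroxiredoxins measured, thiol peroxidases that run on thioredoxin, differed by -0.04 to 0.04. *Prdx2* had 13.25, 13.22, 13.40 and 13.41 in the knockout and 13.36, 13.33, 13.34 and 13.36 in the wild type, in which knockout arrays 1 and 2 were the lowest and 3 and 4 the highest (-0.03, adjusted p = 0.884). Its much dimmer probe set differed by -0.27 (adjusted p = 0.375). *Prdx3*, the mitochondrial form, had 10.68, 10.62, 10.57 and 10.47 against 10.58, 10.50, 10.58 and 10.52, an overlap (0.04, 95% interval -0.11 to 0.19).

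*Prdx4*, the form of the secretory pathway, had 12.40, 12.54, 12.77 and 12.88 in the knockout and 12.85, 12.70, 12.70 and 12.49 in the wild type on its brightest probe set (-0.04, adjusted p = 0.924, or 0.09 without both arrays rich in seminal vesicle transcripts). In this order the day 1 arrays of the knockout (3 and 4) were higher than its day 2 arrays. The next probe sets gave 0.09 and 0.06, and a probe set near the floor of the array gave 4.10, 3.81, 3.98 and 3.92 against 3.65, 3.96, 3.31 and 3.52 (0.34, adjusted p = 0.386). That difference stands on values under 5, where the array measures little.

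Of the superoxide dismutases and catalase, *Sod1*, the copper-zinc enzyme of the cytosol, had the narrowest range of the 45 probe sets that stand for genes, between 14.10 and 14.18 on all 8 arrays (0.02, 95% interval -0.11 to 0.14). Its other 4 probe sets spanned 0.125 to 0.472 over the arrays and differed by 0.01 to 0.10. *Sod2*, the manganese enzyme of mitochondria, had the clearest conflict between probe sets. Its brightest gave 12.51, 12.62, 12.58 and 12.67 in the knockout and 12.76, 12.69, 12.79 and 12.77 in the wild type. The genotypes did not overlap, with a difference of -0.16 ± 0.0619 (SE, adjusted p = 0.352).

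The second *Sod2* probe set gave 11.94, 11.96, 12.11 and 12.11 in the knockout and 12.31, 12.23, 12.28 and 12.16 in the wild type, again lower in the knockout without overlap (-0.22 ± 0.0691, SE, adjusted p = 0.294). The third gave 10.61, 10.74, 10.26 and 10.63 against 10.23, 10.17, 10.19 and 10.10. On it every knockout value lay above every wild-type value (0.39 ± 0.101, SE, adjusted p = 0.244), with 0.28 within array day 1 and 0.49 within day 2. The dimmest probe set gave 6.28, 6.49, 6.45 and 6.47 against 6.40, 6.66, 6.26 and 6.41 and showed no separation (-0.01, adjusted p = 0.977). Probe sets read different stretches of a transcript, and which transcripts these probe sets read was not examined here.

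*Cat*, the peroxisomal catalase, had 11.80, 12.18, 11.85 and 11.92 in the knockout and 11.82, 11.71, 11.63 and 11.77 in the wild type. Only knockout array 1 lay inside the wild-type range. The difference was 0.21 ± 0.0994 (SE, adjusted p = 0.446) and 0.31 without both arrays rich in seminal vesicle transcripts (adjusted p = 0.338), and the second probe set gave 0.27 and 0.45 in the same comparisons. Knockout array 2 was the highest on both, and without it the differences were 0.11 and 0.13. *Sod3*, the extracellular superoxide dismutase, measured 8.19 on knockout array 1, 7.41 on wild-type array 1 and 6.18 to 6.82 on the other 6 arrays. The high arrays are the pair rich in seminal vesicle and adipose transcripts, and the difference of 0.30 (adjusted p = 0.826) was 0.16 without them (adjusted p = 0.737).

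*Txnrd1*, the cytosolic thioredoxin reductase, was the single member gene higher in the knockout at an unadjusted p under 0.05. It had 11.80, 11.84, 11.83 and 11.70 in the knockout and 11.59, 11.62, 11.65 and 11.48 in the wild type. All knockout values lay above all wild-type values, with a difference of 0.21 ± 0.0638 (SE, 1.16-fold, adjusted p = 0.283), 0.23 within array day 1 and 0.19 within day 2. Its other probe sets were much dimmer, with means of 5.26 and 4.81 over the 8 arrays, and gave -0.10 and -0.18. The first of them had 5.24, 5.18, 5.08 and 5.31 in the knockout and 5.57, 5.34, 5.24 and 5.09 in the wild type, and the second 4.73, 4.79, 4.67 and 4.67 against 5.11, 4.74, 5.00 and 4.74. Both overlapped between genotypes.

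*Nqo1* and *Hmox1*, also known as NRF2 targets, had differences within the spread of the arrays. Other genes that work with these enzymes are described further below. *Nqo1*, a quinone reductase often read as a marker of NRF2 activity, differed by 0.06 (95% interval -0.26 to 0.37, adjusted p = 0.895). *Hmox1*, the inducible heme oxygenase, had 7.58, 7.19, 7.63 and 7.23 in the knockout and 7.64, 7.70, 7.51 and 7.18 in the wild type, with full overlap (-0.10, adjusted p = 0.832). Of the 7 genes with the response element core, *Gsta3* was lower and *Txnrd1* higher at an unadjusted p under 0.05. *Gclm*, *Gstm5*, *Gstm7*, *Mgst1* and *Sod1* reached no such p. Over all genes 14.8% reached it in either direction, and nothing about the core is read from these 7 genes.

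Across the 19 genes with several probe sets, 8 had probe sets of both signs (*Gclm*, *Gstm1*, *Gstm7*, *Gsto1*, *Mgst1*, *Prdx4*, *Sod2* and *Txnrd1*), and in 5 of these at least 1 probe set reached an unadjusted p under 0.05. Of the 74 probe sets, 13 had means under 5, and the suffixes that mark probes able to match several genes or other sequences were carried by 3 (s) and 8 (x). Among the 45 probe sets that stand for genes there were 6 of these types.

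**Figure D3:**
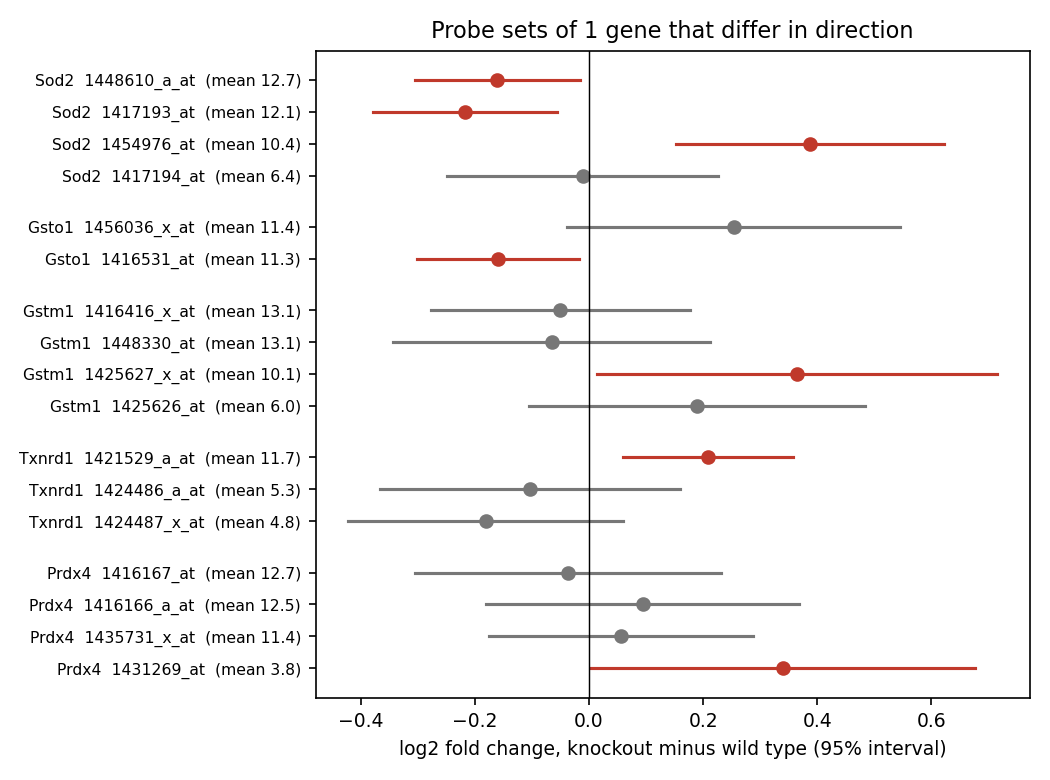
The horizontal axis gives the knockout minus wild-type log2 difference with its 95% interval for every probe set of the 5 genes whose probe sets differed in sign with at least 1 at an unadjusted p under 0.05 (red). Rows run from the brightest to the dimmest probe set of each gene, with the mean log2 value over 8 arrays in brackets, and the third *Sod2* probe set (0.39) lies opposite to the first (-0.16) and second (-0.22).

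Array by array, the members spread most on knockout array 1, as all genes did. The SD of the members' deviations from the mean of all arrays was 0.59 there and between 0.15 and 0.27 on the other 7, and over all genes it was 0.49 there and 0.22 to 0.33 on the others. Knockout array 1 held the highest value for 10 of the 45 genes (22.2%, against 17.7% of all genes) and the lowest for 9 (20%, against 21.9%). Wild-type array 1 held the highest for 12 (26.7%, against 12.4%). The lowest lay on knockout array 2 for 11 genes (24.4%, against 18.3%) and on wild-type array 4 for 10 (22.2%, against 9.79%). Over all genes the median range across the 8 arrays was 0.458, and over the members it was 0.565. The widest ranges were those of *Gsta2* (3.67), *Sod3* (2.01), *Gsta3* (1.89), *Gstm5* (1.69) and *Gstm7* (1.63).

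With the arrays rich in seminal vesicle transcripts left out, 9 member genes reached an unadjusted p under 0.05. Of these, *Mgst1*, *Txnrd1* and *Cat* were higher (6.04% of all genes were) and *Gsta2*, *Gsta3*, *Gstm7*, *Gsto2*, *Gstt1* and *Mgst2* were lower (8.56% of all genes were). None was called with 6 arrays either. *Gstp3* and *Sod2*, which had passed with all arrays, no longer did.

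**Figure D4:**
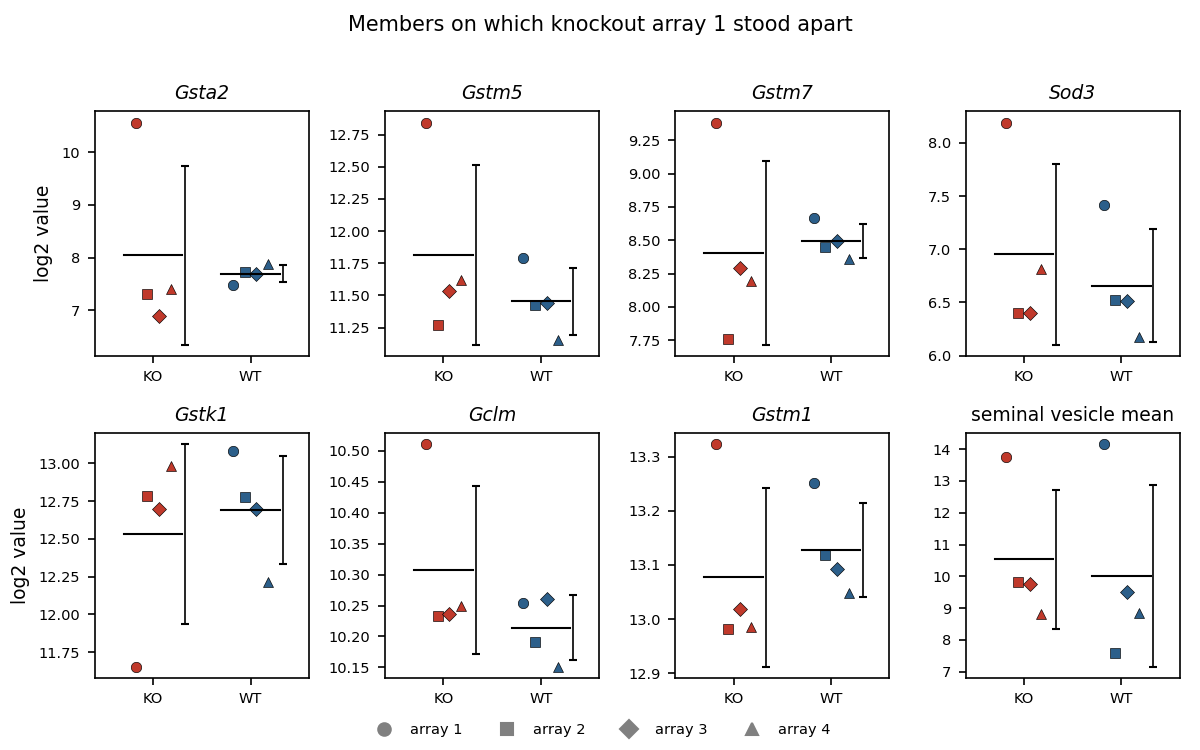
Panels give log2 values on the 4 knockout (KO) and 4 wild-type (WT) arrays, with a line at each group mean, a bar for the SD and a separate vertical scale. The 7 members were picked for their values on knockout array 1 (circle), and the last panel gives the mean of 5 seminal vesicle genes. By Dixon's criterion, given further below, knockout array 1 lay far from the other knockout arrays only for *Gsta2*, *Gstm1* and *Gclm*. *Gsta2* is at 10.56 on knockout array 1 and at 6.89 to 7.41 on the other knockout arrays, and wild-type array 1, also rich in seminal vesicle transcripts, does not share this.

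Genes that work with these enzymes were read in the same fit, 71 measured of 77 listed, and 31 were higher and 40 lower in the knockout, with a median of -0.01. None was called (lowest adjusted p 0.152), and at an unadjusted p under 0.05 there were 3 higher (4.23%, against 6.27% of all genes) and 9 lower (12.7%, against 8.49%). The genes of NADPH supply, on which glutathione and thioredoxin reductases depend, had 1 higher (*Idh1*) and 4 lower (*Taldo1*, *Tkt*, *Idh2* and *Me1*) of 7. This is 1 of 8 lists read and was not tested as a list. *Idh1*, the cytosolic isocitrate dehydrogenase, had 13.15, 13.12, 12.79 and 12.95 in the knockout and 12.52, 12.64, 12.57 and 12.60 in the wild type, without overlap (0.42 ± 0.0764, SE, adjusted p = 0.152). *Taldo1*, transaldolase of the pentose phosphate pathway, had 12.11, 12.08, 12.23 and 12.30 against 12.46, 12.42, 12.47 and 12.35, also without overlap and lower in the knockout (-0.25, adjusted p = 0.267).

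None of the regulators of the response was called. *Nfe2l2*, which encodes NRF2, differed by 0.14 (adjusted p = 0.553), *Mafg*, a small Maf partner, by -0.22 (adjusted p = 0.38), and *Bach1*, a repressor at the same elements, by 0.12 (adjusted p = 0.456). *Abcc2*, an exporter of glutathione conjugates, had 5.52, 6.03, 6.01 and 5.73 in the knockout and 6.28, 6.70, 6.16 and 6.38 in the wild type, with every knockout value lower (-0.55, adjusted p = 0.269), and *Abcc1* differed by 0.20 (adjusted p = 0.599). *Ccs*, the chaperone that loads copper into SOD1, differed by -0.32 (adjusted p = 0.283), while *Sod1* itself differed by 0.02. *Sesn1*, a sestrin, differed by 0.54 (adjusted p = 0.283).

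In the other lists, *Txnl1*, a thioredoxin-like protein, differed by 0.17 (adjusted p = 0.368) and *Txnrd2*, the mitochondrial thioredoxin reductase, by -0.21 (adjusted p = 0.409). *Slc40a1*, the iron exporter ferroportin, differed by -0.47 (adjusted p = 0.379) and *Fth1*, ferritin heavy chain, by 0.14 (adjusted p = 0.45). *Chac1*, which degrades glutathione, differed by 0.40 (adjusted p = 0.404) and *Lap3*, a leucine aminopeptidase, by -0.24 (adjusted p = 0.411). *Hagh*, glyoxalase 2, differed by -0.19 (adjusted p = 0.399) and *Gstcd* by 0.15 (adjusted p = 0.555).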

How the data were processed

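Whole prostate RNA of 8 mice, 4 per genotype, was hybridised to Affymetrix Mouse Genome 430 2.0 arrays. The authors deposited log2 values made with the RMA algorithm (background correction, quantile normalization, summary per probe set); the version of RMA is not stated, detection calls were not used, and with 4 arrays per group precision is limited by their number. The labels name Trizol and the design text an RNeasy kit, and the methods name 5 mice per genotype where 4 were analysed here. Control probe sets (64) were left out, and the platform annotation gave 34945 probe sets 1 symbol, 932 several and 9160 none. The fit used limma (version 3.58.1, functions lmFit and eBayes, two-sided tests) under R 4.3.3 with genotype and array day as terms, and p-values were adjusted by Benjamini-Hochberg over 45037 probe sets. The code was tested on simulated data. The members and gene lists were chosen with earlier results of these data known. Every member is named with its difference, and values per array are given for the 2 smallest p-values of each enzyme group, for any under 0.01 and for genes whose probe sets differed in sign with 1 under 0.05; of the companion lists the 2 smallest p-values were named. Alternatives were 14 other settings and leaving out each of the 8 arrays. No column was left unmapped.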

Additional observations from a re-analysis of the deposited data

Results flagged for a closer look

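In 3 of 90 groups of 4 arrays, the highest or lowest array lay far from the others by Dixon's criterion. Chance gives this in about 1 of 20 groups, so 3 of 90 is no excess over chance. All 3 concern knockout array 1. *Gsta2* was 10.5613 on it and 6.89 to 7.41 on the other knockout arrays, *Gstm1* was 13.3228 against 12.98 to 13.02, and *Gclm* was 10.5103 against 10.23 to 10.25. The same array had a seminal vesicle marker mean of 13.75, and wild-type array 1, with 14.15, was not set apart in these genes by the same criterion. It was the highest wild-type array for *Gstm1* (13.25 against 13.05 to 13.12), the lowest for *Gsta2*, and between the others for *Gclm*. The part of that tissue was not tested.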

How the results depend on the processing

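No member probe set was called under any of the 21 alternatives that test probe sets, where the lowest adjusted p of a member ranged from 0.115 (mean log2 value at least 7) to 0.839 (array day 1 alone). ANOVA without array day, the test the methods name, also called none and had 7 member genes at an unadjusted p under 0.05. No companion gene was called under any of 22 alternatives, and their lowest adjusted p was 0.0517 with an intensity trend and robust variance. The number of member genes at an unadjusted p under 0.05 was 6, and it was 3 with array day 1 alone, 9 without both arrays rich in seminal vesicle transcripts, and 5 to 8 when single arrays were left out. With the replicate block, the number in the labels in place of array day, it was 5 and none was called. Deviations of same-numbered arrays correlated by 0.38, 0.21, 0.05 and 0.0018, and not every array correlated best with its own number, so the arrays were taken to share only a number. The median difference of the members was -0.05 to 0.02 over the alternatives.

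Of 976 recomputed gene values, 902 stayed on their side of the threshold. Those of the 902 that did not pass at first also stayed within the gene's SD of their first value. Sign was not part of that rule, and *Gpx1*, which went from -0.02 to 0.01 with arrays centred on their medians, is among them. A further 27 did not pass and moved by that SD or more. Another 22 no longer passed, 21 newly passed with the same sign, and 4 turned in sign with the first or the new value passing. The Gsta2 log2 fold change turned to -0.565372 without both arrays rich in seminal vesicle transcripts, and ranged from -0.479128 (without knockout array 1) to 0.820388 when single arrays were left out. The Gstm3 log2 fold change was -0.47551 with array day 1 alone. The Txnrd1 log2 fold change was -0.0252692 as the mean of all its probe sets, since its 2 dimmer probe sets have the other sign. *Gsta3* and *Gstt1* kept an unadjusted p under 0.05 in 21 of 22 alternatives (not with array day 1 alone), *Mgst2* in 21 (not with day 2 alone), *Txnrd1* in 19, *Gstp3* in 16 of 21 and *Sod2* in 10 of 22. Other causes were not tested.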
